A study of Mus musculus with 8 samples.

Results

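Chemokine receptors and chemokines of myeloid cells were followed in leukemic mouse cells that carry MLL-AF9, a fusion oncogene of acute leukemia. The set held 5 receptor genes (Ccr1, Ccr2, Cxcr2, Cxcr4 and Cx3cr1) and 5 chemokine genes (Ccl2, Ccl3, Ccl6, Ccl7 and Ccl9). They were listed by symbol, but by a choice made with earlier results of these data known, so their counts and medians beside those of all genes describe a chosen set. They were 10 of 18193 genes on the arrays, and 17 of 45037 probe sets carried exactly 1 of these symbols. Where a gene had several probe sets, the one with the highest mean stood for it.

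RNA of 8 samples was hybridised to 1 Affymetrix array each, in 4 groups of 2 arrays. All cells carried MLL-AF9, a hairpin, and grew with serum, SCF, IL-3 and IL-6. The groups were shLUC cells kept 6 days in 3 µM EPZ4777, shLUC cells in DMSO, cells labelled shSirt1 kept 21 days in 3 µM EPZ4777, and cells labelled shSirt1 in DMSO. EPZ4777 inhibits DOT1L, the enzyme that methylates lysine 79 of histone H3. The shLUC hairpin is aimed at luciferase, which mouse cells lack, and shSirt1 is aimed at the deacetylase Sirt1. DMSO is the solvent, and its arrays have no time label. Hairpin and days in drug therefore cannot be told apart in EPZ4777, and no comparison with DMSO separates the drug from time in culture. In the titles a code (A4 and D11 with shLUC, A1 and A5 with shSirt1) joins an EPZ4777 array to a DMSO array, and the labels leave its meaning unstated. Nor do they say that arrays of 1 group are separate cultures, so that p-values measured the spread between these arrays, possibly a technical one.

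Chemokines are small secreted proteins that bind G protein-coupled receptors and draw cells along a gradient. Ccr2, the receptor of Ccl2 and Ccl7, takes inflammatory monocytes out of the bone marrow. Cxcr2 does so for neutrophils, while Cxcr4, the receptor of Cxcl12, holds both lineages and their progenitors in the marrow. Ccr1 binds Ccl3, Ccl7 and the mouse chemokines Ccl6 and Ccl9, and Cx3cr1, the receptor of Cx3cl1, marks patrolling monocytes and many tissue macrophages.

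The label of the hairpin was checked on its target first. Sirt1 measured 8.85 (A1) and 9.73 (A5) in cells labelled shSirt1 in EPZ4777, against 9.44 (A4) and 9.83 (D11) in shLUC cells in EPZ4777, on the log2 intensity scale used throughout. In DMSO it measured 8.70 (A1) and 9.54 (A5) in cells labelled shSirt1, against 9.46 (A4) and 9.58 (D11) in shLUC cells. Sirt1 was thus lower on the A1 arrays, while both A5 arrays lay within the range of the shLUC arrays of the same agent. Members that passed in the shSirt1 arm or between hairpins are therefore also given with the arrays of 1 code left out. Genes of the other lists are not. That leaves 1 array in each shSirt1 group, so those values are given without a test. Counts of passes in such fits appear only in the closing section, with their limit. Where a single array is left out, the fit takes the lone array of its group to vary like the other groups. Dot1l, the gene of the drug's target, measured between 7.59 and 7.86 on all arrays. The median over genes lay between 5.21 and 5.27 on the 8 arrays. The lower quartile of the genes' mean levels was 4.27, so a gene near that value cannot be told from background here. Myeloid markers were present: the linear intensities of 10 measured neutrophil markers summed to 60092 and 101540 on the shLUC arrays in EPZ4777, against 26970 and 35128 in DMSO. The B cell, erythroid and T and NK cell marker lists summed to between 104 and 359 on all arrays.

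In EPZ4777 the members did not move as one. Averaged over both hairpin arms, 3 members rose (Cxcr2, Ccl6 and Ccl7), 2 fell (Ccr2 and Ccl9) and 5 did not pass limma's test at a Benjamini-Hochberg adjusted p under 0.05. Over all genes 10.9% passed in that comparison, 4.88% as a rise and 6% as a fall. In shLUC cells alone 1 member passed, Ccl7, where 3.98% of all genes passed and 1.62% rose. In cells labelled shSirt1 alone 2 members passed, Ccr2 and Ccl9, both downward, where 0.396% of all genes passed and 0.181% fell. The 2 arrays of each agent did not overlap for 9 members in shLUC cells, 6 higher and 3 lower in EPZ4777, beside 24.2% and 28.2% of all genes. Among shSirt1 arrays 5 members were so higher and 2 lower, beside 26% and 23% of all genes. With the code in the titles as a block in the fit, 5 members passed in shLUC cells, 3 in cells labelled shSirt1 and 8 over both arms, beside 7.23%, 2.22% and 16.1% of all genes. The median absolute log2 difference of the 10 members was 1.29 in the shLUC arm and 0.91 in the arm labelled shSirt1, beside 0.17 and 0.16 over all genes. Within all 4 codes, 4 members were higher in EPZ4777 (Ccr1, Cxcr2, Cxcr4 and Ccl6), a pattern shown by 18.7% of all genes, and 2 were lower (Ccr2 and Ccl9), shown by 19.6% of all genes. The other 4 members, Cx3cr1, Ccl2, Ccl3 and Ccl7, had differences of both signs among the codes.

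**Figure D1:**
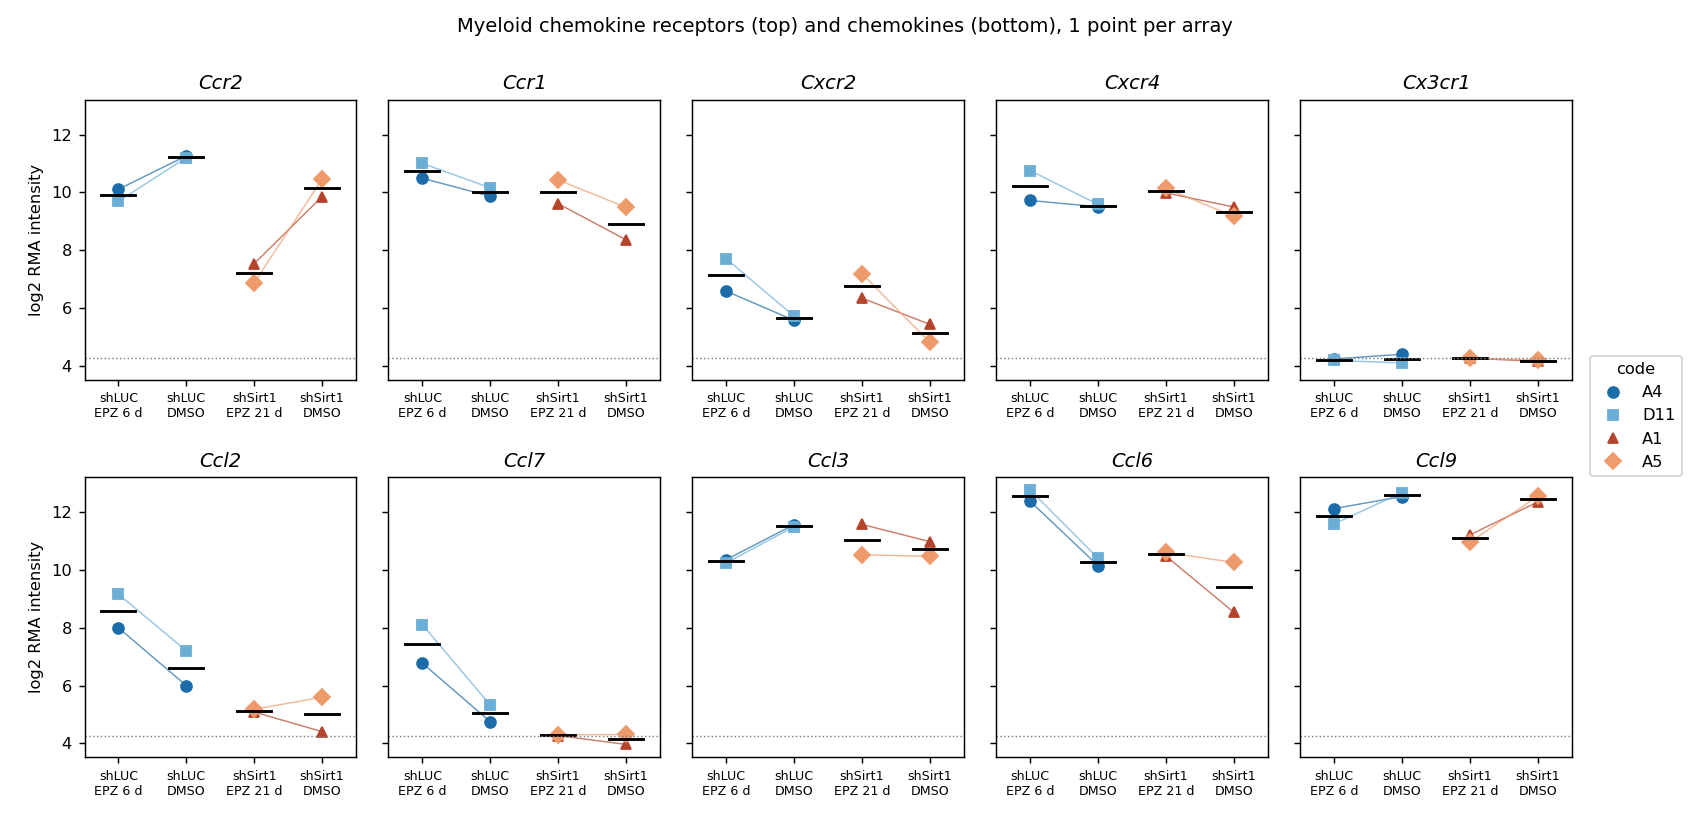
Log2 RMA intensity of the 10 members on each array, receptors in the top row and chemokines below, with EPZ4777 left of DMSO in each hairpin arm. Points are arrays, thin lines join the arrays of a code, black bars are group means (n = 2), and the dotted line is the lower quartile of gene means at 4.27. Ccr2 and Ccl9 slope the same way in all 4 codes, the Ccl2 and Ccl7 groups separate with shLUC and overlap with shSirt1, and Cx3cr1 lies near the dotted line on every array.

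The 250 bases before the annotated start are shown for the 4 of these 5 genes that have a RefSeq promoter entry (GRCm38.p6), since their direction differed and 2 of them are neighbours on chromosome 11. Ccr2 is read from chr9:124101933-124102182 on the plus strand and Cxcr2 from chr1:74153744-74153993 on the plus strand. Ccl6 is read from chr11:83593088-83593337 and Ccl9 from chr11:83578637-83578886, both on the minus strand. Capitals mark matches to the core of PU.1 (GAGGAA), a C/EBP-type word (TTNCNNAA) and the TATA box (TATAAA), sought on both strands. In Ccl6 the capitals mark a word of 14 bases that occurs 2 times.
Ccr2: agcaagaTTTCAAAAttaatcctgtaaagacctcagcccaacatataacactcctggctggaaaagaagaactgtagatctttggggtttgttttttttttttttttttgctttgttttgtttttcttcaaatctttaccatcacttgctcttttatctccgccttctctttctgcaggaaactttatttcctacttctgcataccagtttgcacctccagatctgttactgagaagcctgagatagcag
Cxcr2: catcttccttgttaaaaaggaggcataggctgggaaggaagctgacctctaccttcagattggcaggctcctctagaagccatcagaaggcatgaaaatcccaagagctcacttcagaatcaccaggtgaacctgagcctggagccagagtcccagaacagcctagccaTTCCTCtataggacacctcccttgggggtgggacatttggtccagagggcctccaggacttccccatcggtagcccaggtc
Ccl6: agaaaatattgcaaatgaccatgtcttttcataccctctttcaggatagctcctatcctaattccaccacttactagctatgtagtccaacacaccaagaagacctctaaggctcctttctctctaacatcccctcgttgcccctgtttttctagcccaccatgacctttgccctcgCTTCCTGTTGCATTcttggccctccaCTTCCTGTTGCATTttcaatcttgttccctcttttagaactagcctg
Ccl9: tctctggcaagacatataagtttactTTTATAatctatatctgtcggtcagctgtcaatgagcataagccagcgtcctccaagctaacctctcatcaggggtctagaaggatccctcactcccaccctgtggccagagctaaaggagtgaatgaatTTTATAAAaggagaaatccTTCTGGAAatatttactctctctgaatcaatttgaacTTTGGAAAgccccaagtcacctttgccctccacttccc
Ccr2 holds 1 C/EBP-type word, Cxcr2 1 PU.1 core on the opposite strand, and Ccl9 holds C/EBP-type words beside TATAAA at position -92, counted from the start site. The repeat in Ccl6 begins at -73 and at -47, and a repeat of at least that length was found in 2.66% of 32851 promoters. The length counted is that of the Ccl6 repeat itself, so the share is no test. In the other members with an entry the longest repeat had 6 to 10 bases. Over the 8 members with an entry, the PU.1 core was found in 3, beside 23.3% of all promoters, the C/EBP-type word in 5, beside 36.8%, and TATAAA in 2, beside 12.4%. A composite word for PU.1 with IRF (GGAA, 2 bases of any kind, GAAA), an IRF word (GAAA, 2 bases of any kind, GAAA) and a kappa B word (GGGANTTCC) were found in 0 of the 8, beside 2.3%, 2.98% and 1.43% of promoters. The IRF words can share letters with the PU.1 core, and a match is a run of letters, not a shown binding site.

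Ccr2, the monocyte receptor, was the 1 receptor that fell. It measured 10.11 (A4) and 9.69 (D11) in shLUC cells in EPZ4777, against 11.27 (A4) and 11.21 (D11) in DMSO. Ccr2 in cells labelled shSirt1 measured 7.54 (A1) and 6.87 (A5) in EPZ4777, against 9.85 (A1) and 10.45 (A5) in DMSO. Neither pair of groups overlapped, and the lowest levels were those of cells labelled shSirt1 after 21 days. Ccr2 fell by 2.95 ± 0.28 (SE, n = 2 arrays a group) on the log2 scale in cells labelled shSirt1 (limma adjusted p = 0.0385) and by 2.15 ± 0.20 over both arms (limma adjusted p = 0.00713). In shLUC cells the log2 difference of -1.34 ± 0.28 did not pass (limma adjusted p = 0.0505), but it passed under 10 of 19 alternative settings, among them a trended and robust variance (limma adjusted p = 0.0453) and a fit of those 4 arrays alone (0.0356). These settings are not all distinct fits. For the shLUC arm, leaving out both A1 or both A5 arrays repeats the fit of those 4 arrays. Leaving out either shSirt1 array of an agent also gives the same result. The shSirt1 fall did not pass by limma without the DMSO array of A1 (adjusted p = 0.0618) or the EPZ4777 array of A5 (0.0920), in a fit of its 4 arrays alone (0.140), or without either shLUC DMSO array (0.115). The difference in single codes was -3.59 without the A1 arrays and -2.32 without the A5 arrays. The fall over both arms did not pass without either shLUC DMSO array, at -2.13 without A4 and -2.16 without D11. The linear intensities of 9 monocyte markers summed to between 10807 and 14087 on the shLUC arrays in EPZ4777, against 14746 to 16234 in DMSO, and to between 5981 and 9823 in cells labelled shSirt1 in EPZ4777, against 11399 to 13193 in DMSO. F13a1, at 13.29 against 13.31 in code A4, made up most of each sum, so the sums do not stand for the list. In every code F13a1, Ly86, Ms4a6c and Irf8 were lower in EPZ4777 and Cd14 was higher. Csf1r, Fn1, Klf4 and Nr4a1 differed in sign among the codes. The part of these markers in the Ccr2 result was not tested, and in bulk RNA fewer cells of a type and less RNA per cell cannot be told apart.

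Cxcr2, the neutrophil receptor for Cxcl1, Cxcl2 and related chemokines, moved the other way. It measured 6.59 (A4) and 7.71 (D11) in shLUC cells in EPZ4777, against 5.57 (A4) and 5.72 (D11) in DMSO. Cxcr2 in cells labelled shSirt1 measured 6.34 (A1) and 7.19 (A5) in EPZ4777, against 5.44 (A1) and 4.81 (A5) in DMSO. All 4 EPZ4777 arrays lay above all 4 DMSO arrays, a pattern found upward in 8.05% of all genes. Over both arms Cxcr2 rose by 1.57 ± 0.30 (limma adjusted p = 0.0258), while the single arms, at 1.50 ± 0.42 and 1.64 ± 0.42, did not pass (limma adjusted p = 0.0926 and 0.166). The rise over both arms did not pass by limma without the D11 array in EPZ4777 (adjusted p = 0.0632), without the A5 array in DMSO (0.0637) or in EPZ4777 (0.0750), or without either shLUC DMSO array (0.110 and 0.0983). With both A1 arrays left out it was 1.94, and with both A5 arrays left out 1.20. Neutrophil markers moved with it: their summed intensity was 61148 and 103956 in cells labelled shSirt1 in EPZ4777, against 11557 and 28856 in DMSO, beside the shLUC sums given above. S100a8 and S100a9 were the highest of these markers on every array and weigh most in the sums. In code A4 they measured 14.37 and 14.32 in EPZ4777, against 13.81 and 12.93 in DMSO. Each measured neutrophil marker was higher in EPZ4777 in every code. The part of these markers in the Cxcr2 result was not tested.

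Cxcr4, the marrow retention receptor, measured 9.72 (A4) and 10.76 (D11) in shLUC cells in EPZ4777, against 9.50 (A4) and 9.59 (D11) in DMSO. Cxcr4 in cells labelled shSirt1 measured 9.99 (A1) and 10.14 (A5) in EPZ4777, against 9.50 (A1) and 9.18 (A5) in DMSO. Its EPZ4777 arrays also lay above all DMSO arrays, but the log2 difference over both arms, 0.71 ± 0.22, did not pass (limma adjusted p = 0.0824). Ccr1, which receives Ccl3, Ccl6 and Ccl9, measured 10.49 (A4) and 11.01 (D11) in shLUC cells in EPZ4777, against 9.87 (A4) and 10.16 (D11) in DMSO. Ccr1 in cells labelled shSirt1 measured 9.61 (A1) and 10.43 (A5) in EPZ4777, against 8.37 (A1) and 9.49 (A5) in DMSO. The groups did not overlap within either arm, and the difference within the codes was 0.62 (A4), 0.84 (D11), 1.25 (A1) and 0.95 (A5). Over both arms it was 0.92 ± 0.29 and did not pass without a block (limma adjusted p = 0.0928). With the code as a block Ccr1 passed over both arms (limma adjusted p = 0.00958), in the shLUC arm (0.0381) and in the arm labelled shSirt1 (0.0283). Cx3cr1 lay between 4.10 and 4.40 on all 8 arrays, next to the lower quartile of all genes, and its difference over both arms was 0.020 ± 0.088 (limma adjusted p = 0.916).

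Among the chemokines, Ccl2 and Ccl7, neighbouring genes on chromosome 11 whose products draw monocytes through Ccr2, were highest on the shLUC arrays in EPZ4777. Ccl7 measured 6.78 (A4) and 8.11 (D11) in shLUC cells in EPZ4777, against 4.75 (A4) and 5.33 (D11) in DMSO. Ccl7 in cells labelled shSirt1 measured 4.27 (A1) and 4.30 (A5) in EPZ4777, against 3.97 (A1) and 4.31 (A5) in DMSO, all 4 values close to the lower quartile of gene levels. Ccl7 rose by 2.40 ± 0.41 in shLUC cells (limma adjusted p = 0.0362) and differed by 0.15 ± 0.41 in cells labelled shSirt1 (limma adjusted p = 0.891). The rise did not pass by limma without the D11 array in EPZ4777 (adjusted p = 0.122), without either shSirt1 DMSO array (0.0509), without either shLUC DMSO array (0.230 and 0.203), or in a fit of its 4 arrays alone (0.0575). Its pass over both arms (1.27 ± 0.29, limma adjusted p = 0.0390) was lost without any 1 of 7 arrays, all but the A4 array in EPZ4777, at adjusted p between 0.0559 and 0.141.

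Ccl2, the main monocyte attractant, measured 8.005 (A4) and 9.17 (D11) in shLUC cells in EPZ4777, against 6.00 (A4) and 7.21 (D11) in DMSO. Ccl2 in cells labelled shSirt1 measured 5.09 (A1) and 5.18 (A5) in EPZ4777, against 4.41 (A1) and 5.60 (A5) in DMSO. The shLUC groups did not overlap and the shSirt1 groups did. The log2 differences were 1.98 ± 0.56 in shLUC cells (limma adjusted p = 0.0926) and 0.13 ± 0.56 in cells labelled shSirt1 (limma adjusted p = 0.932), and neither passed. Ccl2 did pass with the code as a block, in shLUC cells (limma adjusted p = 0.0284) and over both arms (1.05, 0.0254). Macrophage markers followed the same arrays: the intensities of 9 of them summed to 2711 and 4300 in shLUC cells in EPZ4777, against 1216 and 1378 in DMSO, and to 442 and 590 in cells labelled shSirt1 in EPZ4777, against 398 and 765 in DMSO. Their part in the Ccl2 and Ccl7 values was not tested.

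Ccl6, a chemokine found in rodents and made by myeloid cells, measured 12.38 (A4) and 12.77 (D11) in shLUC cells in EPZ4777, against 10.15 (A4) and 10.41 (D11) in DMSO. Ccl6 in cells labelled shSirt1 measured 10.48 (A1) and 10.62 (A5) in EPZ4777, against 8.54 (A1) and 10.26 (A5) in DMSO. The 2 shLUC arrays in EPZ4777 stood above the other 6 arrays, and the A1 array in DMSO stood below the other 7. Ccl6 rose by 1.72 ± 0.34 over both arms (limma adjusted p = 0.0291). The shLUC difference of 2.29 ± 0.49 (limma adjusted p = 0.0512) and the shSirt1 difference of 1.15 ± 0.49 (limma adjusted p = 0.317) did not pass, although the first passed under 8 of 19 alternatives, the code as a block among them (limma adjusted p = 0.0355). Some of these 8 are the same fit, as for Ccr2. Within the codes of the shSirt1 arm the difference was 1.94 in A1 and 0.35 in A5. The rise over both arms did not pass by limma without the D11 or A5 array in EPZ4777 (adjusted p = 0.0957 and 0.0870) or without either shLUC DMSO array (0.117 and 0.102). It was 1.32 without both A1 arrays and 2.12 without both A5 arrays.

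Ccl9, a further Ccr1 ligand of mouse myeloid cells and the gene beside Ccl6, fell. It measured 12.13 (A4) and 11.60 (D11) in shLUC cells in EPZ4777, against 12.54 (A4) and 12.68 (D11) in DMSO. Ccl9 in cells labelled shSirt1 measured 11.22 (A1) and 10.97 (A5) in EPZ4777, against 12.36 (A1) and 12.56 (A5) in DMSO. All 4 EPZ4777 arrays lay below all 4 DMSO arrays, a pattern found downward in 9.94% of all genes. Ccl9 fell by 1.36 ± 0.19 in cells labelled shSirt1 (limma adjusted p = 0.0497) and by 1.05 ± 0.14 over both arms (limma adjusted p = 0.0128). The shLUC difference of -0.75 ± 0.19 did not pass (limma adjusted p = 0.0768). The shSirt1 pass lay at the threshold and was lost under 12 of 19 alternatives, among them the mean of its probe sets (limma adjusted p = 0.0581), quantile normalization (0.0574) and each of the 4 shSirt1 arrays left out (0.0666 to 0.238). It was -1.59 without both A1 arrays and -1.14 without both A5 arrays. The fall over both arms was lost without either shLUC DMSO array (limma adjusted p = 0.0701 and 0.0695).

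Ccl3, the inflammatory chemokine also called MIP-1 alpha and next to Ccl6 on its other side, measured 10.36 (A4) and 10.25 (D11) in shLUC cells in EPZ4777, against 11.58 (A4) and 11.50 (D11) in DMSO. Ccl3 in cells labelled shSirt1 measured 11.58 (A1) and 10.53 (A5) in EPZ4777, against 10.98 (A1) and 10.47 (A5) in DMSO. Both shLUC codes were lower in EPZ4777 and both shSirt1 codes higher, the A5 code by 0.059 only. The log2 differences, -1.23 ± 0.33 in shLUC cells (limma adjusted p = 0.0818) and 0.33 ± 0.33 in cells labelled shSirt1 (limma adjusted p = 0.658), did not pass, the first passing under 7 of 19 alternatives. Some of these 7 are likewise the same fit. Ccl3 did pass with the code as a block, in shLUC cells (limma adjusted p = 0.0277) and over both arms (-0.45, 0.0478). In the mouse annotation Ccl9, Ccl6 and Ccl3 follow each other, with Ccl5 before and Ccl4 after them. In shLUC cells Ccl4, the chemokine MIP-1 beta, differed by -0.30 ± 0.10 (limma adjusted p = 0.148), and did not pass.

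**Figure D2:**
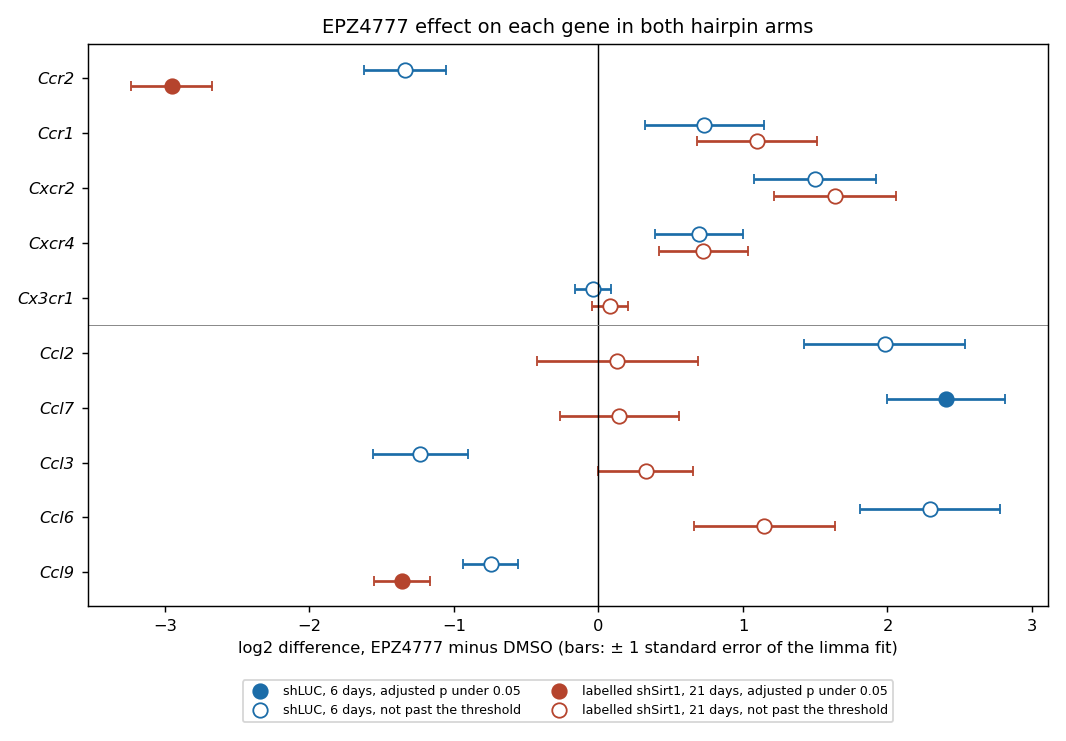
Log2 difference of EPZ4777 minus DMSO for each member, in shLUC cells and in the cells that carry the label shSirt1, with bars of 1 SE from the limma fit (n = 2 arrays a group); filled points passed at adjusted p under 0.05. Ccl7 is the filled point in shLUC cells at 2.40, and Ccr2 and Ccl9 are the filled points in cells labelled shSirt1 at -2.95 and -1.36.

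Several probe sets covered 5 of the members. For Ccl6, Ccl9 and Ccr1 both probe sets of a gene had the same sign in all 4 codes. The second Ccl6 probe set, whose suffix marks a possible match to more than 1 transcript, rose by 2.01 ± 0.38 over both arms (limma over all probe sets, adjusted p = 0.0281). The second Ccl9 probe set fell by 1.16 ± 0.15 (limma over all probe sets, adjusted p = 0.0137). The second probe set of Ccr1 differed by 1.46 ± 0.45 and did not pass (limma over all probe sets, adjusted p = 0.0963). Of 4 Ccr2 probe sets, 3 fell over both arms, with log2 differences of -2.15 ± 0.20, -2.73 ± 0.23 and -1.67 ± 0.29 and limma adjusted p of 0.00733, 0.00606 and 0.0251. The fourth measured between 5.77 and 6.56 on all arrays and differed by -0.092 ± 0.11 (limma over all probe sets, adjusted p = 0.675). The 2 Cx3cr1 probe sets both stayed under 4.49 on every array.

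**Figure D3:**
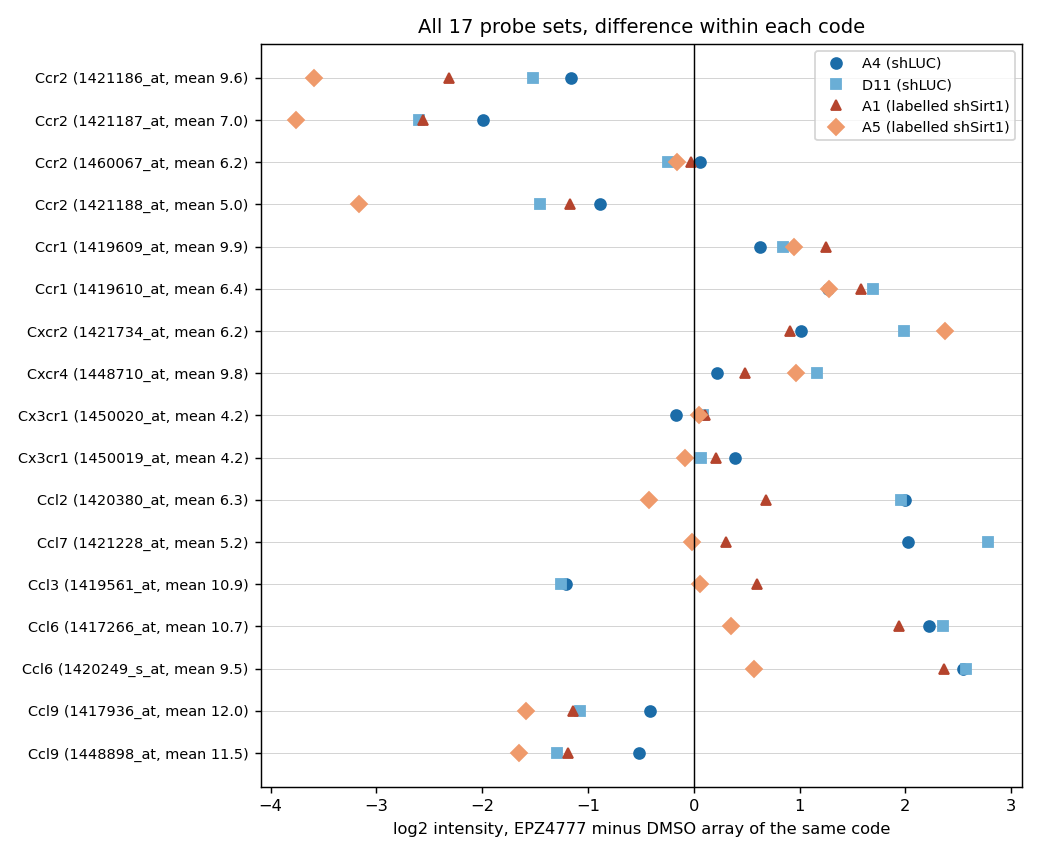
Log2 difference of EPZ4777 minus DMSO within each code for the 17 probe sets of the members, 1 row per probe set and 1 point per code. The points of 3 Ccr2 probe sets lie between -3.76 and -0.89, while those of the fourth lie between -0.24 and 0.063.

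Ligands and receptors were also set side by side. Among the members only Ccl7 passed in shLUC cells, and only Ccr2 and Ccl9 in cells labelled shSirt1. In shLUC cells the log2 difference was 1.98 for Ccl2 and 2.40 for Ccl7, beside -1.34 for their receptor Ccr2. In cells labelled shSirt1 it was 0.13 for Ccl2 and 0.15 for Ccl7, beside -2.95 for Ccr2. For Ccr1 the shLUC difference of 0.73 stood beside 2.29 for Ccl6, -0.75 for Ccl9 and -1.23 for Ccl3. In cells labelled shSirt1, 1.10 for Ccr1 stood beside 1.15 for Ccl6, -1.36 for Ccl9 and 0.33 for Ccl3. Of the ligands of Cxcr2, Cxcl2 differed by -0.37 ± 0.47 in the shLUC arm and 0.95 ± 0.47 in the arm labelled shSirt1. Neither difference passed, and Cxcl1, Cxcl3, Cxcl5 and Ppbp did not pass in either arm. Over the arrays Cxcl5 measured 2.29 to 2.64, Cxcl3 2.67 to 4.33 and Ppbp 3.14 to 4.72. These levels lay below or near the lower quartile of gene levels, so the missing passes of these genes say little of a response. Cxcl12, the Cxcr4 ligand made by marrow stroma, measured between 4.19 and 4.58 on every array, near the lower quartile of all genes. The Cx3cr1 ligand Cx3cl1 did not pass either, at 0.085 ± 0.14 in the shLUC arm and 0.26 ± 0.14 in the arm labelled shSirt1.

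Whether the EPZ4777 effect differed between the hairpin arms was tested directly. For 0 of the 10 members and 0% of all genes did this difference pass in limma. At an unadjusted p under 0.05, 3 members and 1221 genes (6.71%) stood out. The 3 were Ccr2 (shSirt1 minus shLUC effect -1.61 ± 0.40, limma adjusted p = 0.587), Ccl7 (-2.26 ± 0.58, limma adjusted p = 0.587) and Ccl3 (1.56 ± 0.46, limma adjusted p = 0.627). A smaller response of Ccl7 or a larger one of Ccr2 in cells labelled shSirt1 was therefore not shown. For Cxcr2 the difference was 0.14 with a 95% interval of -1.27 to 1.55, and for Cxcr4 it was 0.031 with an interval of -0.99 to 1.06, so that neither interval settles the sign of the difference.

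Hairpin arms were also compared at the same agent, comparisons that share arrays with those above. In EPZ4777, Ccr2 was lower in cells labelled shSirt1 than in shLUC cells (log2 difference -2.70 ± 0.28, limma adjusted p = 0.0340) and Ccl7 was lower too (log2 difference -3.16 ± 0.41, limma adjusted p = 0.0411), where 0.308% of all genes passed and 0.242% were lower. Ccl2 (-3.45 ± 0.56, limma adjusted p = 0.0709) and Ccl6 (-2.02 ± 0.49, limma adjusted p = 0.150) did not pass. The Ccr2 call was lost by limma without either shLUC array in EPZ4777 (adjusted p = 0.103 and 0.127), without the A5 array in EPZ4777 (0.102), without either shLUC DMSO array (0.0873), in a fit of those 4 arrays alone (0.0874) and with the mean of its probe sets (-1.73, 0.0612). The Ccr2 difference was -3.03 without both A1 arrays and -2.37 without both A5 arrays, and the Ccl7 difference was -3.15 and -3.17. The Ccl7 call was lost under 11 of 17 alternatives, 7 of them single arrays left out, at adjusted p of 0.0526 to 0.157. In DMSO all 10 members had negative differences, where the median over all genes was -0.013. In 7 both shSirt1 arrays lay below both shLUC arrays, a pattern found downward in 22.2% of all genes. All 10 stayed negative without both A1 or both A5 arrays, but some sizes rested on A1. Without both A1 arrays the difference was -0.015 for Ccl6 and -0.53 for Ccr1, against -1.74 and -1.65 without both A5 arrays. None of the 10 passed in DMSO by limma, where 0% of all genes passed, with 4 members and 985 genes (5.41%) at an unadjusted p under 0.05.

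Of 51 other chemokine and receptor genes 46 were measured, and 40 of them in each arm differed by less than 0.5 log2 in EPZ4777. The median absolute difference over all genes was 0.17 and 0.16, so most genes of any kind lay under 0.5. The members were chosen with earlier results known, so a contrast with these 46 says nothing of the family. On no array were 11 of the 46 above the lower quartile of gene levels, and a small difference of those 11 says nothing of a response. Among 13 other CC chemokines 1 passed in shLUC cells, Ccl12, a mouse monocyte attractant that also acts through Ccr2, at 1.93 ± 0.35 (limma adjusted p = 0.0383), with a median of 0.060 for the list. Over all genes 1.62% rose in that arm and 4.88% over both arms. Ccl12 measured 6.33 and 7.41 in shLUC cells in EPZ4777, against 4.66 and 5.21 in DMSO, and 4.15 or less on all shSirt1 arrays. Among 17 CXC, C and CX3C chemokines 1 rose in shLUC cells, Pf4, the platelet chemokine, at 2.71 ± 0.19 (limma adjusted p = 0.00979), and over both arms Pf4 (1.74) and Cxcl10 (1.03 ± 0.18, limma adjusted p = 0.0230), the interferon-induced ligand of Cxcr3, rose. Of 16 other receptors 0 passed by limma in either arm or over both. In cells labelled shSirt1, 2 of the 17 (Pf4 and Cxcl10) and 1 of the 16 (Cxcr3) passed by limma with the code as a block. Each was higher and lay close to the threshold (limma adjusted p = 0.0442, 0.0494 and 0.0499). In that fit Cxcl10 also passed in shLUC cells (limma adjusted p = 0.0326) and Cxcr3 over both arms (0.0458). Over all genes it called 1.31% higher with shSirt1, 3.63% with shLUC and 7.49% over both arms. Cxcr3 lay near background, at 4.10 (A1) and 3.87 (A5) in shSirt1 DMSO against 4.70 on both arrays in EPZ4777. Ackr3, the decoy receptor of Cxcl12, measured 5.41 on the A1 array in DMSO and 2.36 to 2.73 on the other 7, and the summed intensity of 7 stroma markers on that array was 519.8, against 184.7 to 201.0 on the others.

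**Figure D4:**
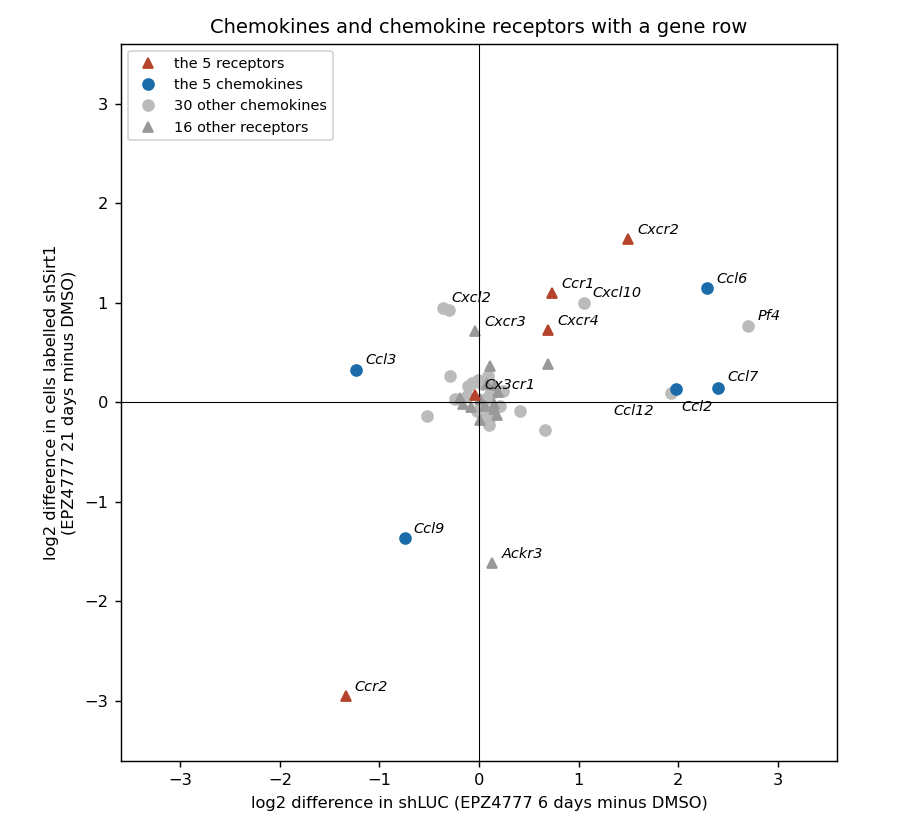
Log2 difference of EPZ4777 minus DMSO in shLUC cells (x axis) against cells labelled shSirt1 (y axis) for the 5 receptors and 5 chemokines of the set, 30 other chemokines and 16 other chemokine receptors. Each point is 1 gene, and both axes are in log2 units. Most other family genes lie near 0 on both axes, while Pf4 and Ccl12 lie to the right with the members Ccl2, Ccl6 and Ccl7. The members were chosen with earlier results of these data known.

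Genes that act downstream of chemokine receptors, or beside them, were counted as lists. Earlier results of these data were known when the lists were chosen, so the counts describe chosen sets. Of 22 signalling genes 0 passed by limma in either arm. Over both arms 5 rose and 0 fell, beside 4.88% and 6% of all genes. The list median was 0.20, beside 0.0051 over all genes. The blocked fit called 1 higher in each arm, and over both arms 9 higher and 1 lower. Over all genes it called 7.49% higher and 8.59% lower over both arms. Of the 5 that rose, the Src family kinase Fgr had the largest difference (2.45), followed by the receptor-desensitising arrestin Arrb2 (1.33) and the G protein regulators Rgs19 (0.77) and Rgs2 (0.76). Of 10 other chemoattractant receptors 2 rose in shLUC cells, the complement receptor C3ar1 (1.99 ± 0.10, limma adjusted p = 0.00407) and the chemerin receptor Cmklr1 (0.86). In that arm 1.62% of all genes rose. Over both arms 5 of the 10 rose and 0 fell, beside 4.88% and 6% of all genes. The largest were the complement receptor C5ar1 (2.49), the leukotriene receptor Ltb4r1 (1.92), C3ar1 (1.20) and the sphingolipid receptor S1pr4 (1.14). C3ar1 was lower in cells labelled shSirt1 than in shLUC cells in EPZ4777 (log2 difference -1.90), the 1 gene of that list to pass there, where 0.242% of all genes were lower. With the code as a block 4 of these receptors rose in shLUC cells and 2, C5ar1 (2.94) and Ltb4r1 (2.31), in cells labelled shSirt1. That fit called 3.63% and 1.31% of all genes higher in these arms.

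A list of 16 measured genes known to act on myeloid chemokine genes held transcription factors and the NF-kappa B regulators Nfkbia and Nfkbiz. In shLUC cells 2 of them rose and 1 fell, beside 1.62% and 2.36% of all genes. Maf, a macrophage factor, rose by 2.97 and Gfi1, a repressor in granulocyte development, by 1.13, while Irf8, which drives monocyte fate, fell by 1.99. In cells labelled shSirt1 Irf8 fell by 3.25 and no other gene of the list passed, where 0.396% of all genes passed. Over both arms the NF-kappa B inhibitor Nfkbia, Gfi1 and Cebpb rose, at 1.30, 0.48 and 0.35, and Irf8 fell by 2.62. Over all genes 4.88% rose and 6% fell in that comparison. With the code as a block 4 genes rose in shLUC cells (Cebpa, Gfi1, Maf and Nfkbia), 1 in cells labelled shSirt1 (Nfkbia) and 6 over both arms. Over all genes 3.63%, 1.31% and 7.49% rose in that fit. Irf8 was the 1 gene of the list to fall in each, beside 3.61%, 0.907% and 8.59% of all genes. Irf8 is also 1 of the 9 monocyte markers summed above.

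Likeness to other genes over the 8 arrays was described by Pearson's r for the 6 members whose range was at least 2 log2 units, among 681 candidate genes with such a range. These arrays share treatments and codes, so r describes a common pattern only. Ccr2 was most like Lpxn (r = 0.98), Ifi209 (0.98) and St8sia4 (0.97). Ccr1 was most like Lyz2, the myeloid lysozyme (0.99), Pilra (0.99) and Slfn2 (0.99). Cxcr2 was most like Inpp4a (0.99), Pfkfb4 (0.98) and Csf3r, the receptor of the granulocyte growth factor G-CSF (0.98). Ccl2 was most like Maf (0.99), the acute phase gene Saa3 (0.98) and Hacd4 (0.98). Ccl7 was most like Klk1b11 (0.99), Ccl12 (0.99) and Ms4a7 (0.99), and Ccl6 most like Nabp1 (0.97), P2ry6 (0.96) and Ptger2 (0.96). Among the members themselves r was 0.97 for Ccl2 with Ccl7, 0.95 for Cxcr2 with Cxcr4, 0.94 for Ccr2 with Ccl9 and -0.76 for Cxcr2 with Ccl9, each over 8 arrays.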

How the data were processed

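Total RNA of the 8 samples was hybridised to Affymetrix arrays. The deposited values are linear intensity values per probe set that the authors computed by RMA, of a version that is not given, per the submitters' processing notes. RMA subtracts background, normalizes between arrays and summarises probes, and it compresses differences of dim genes.

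The log2 was taken with no pseudocount. Of 45101 probe sets, 64 controls were left out. The platform annotation gave 34945 exactly 1 symbol and 932 several, and 9160 were not listed, which left 18193 genes, and 9010 of these had several probe sets. No filter on level was applied. The test was limma 3.58.1 under R 4.3.3, with 4 group means over all 8 arrays with 4 residual degrees of freedom, in 6 comparisons, two-sided, with Benjamini-Hochberg adjustment over all genes within a comparison. Every p without another source is from that fit, and the script was tested on simulated data. For 2 arrays against 2 the smallest p of an exact test is 0.333, and the number of arrays limits the precision.

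Named genes were the 10 members, Sirt1, Dot1l, up to 4 passing genes per list with the largest differences, the fixed ligand and receptor pairs, and 3 most alike genes per member with a range of at least 2. Ccl4, Ackr3 and the pairs of members were named after their values were seen. The members and lists were chosen with earlier results of these data known. Deviations from the group means correlated over genes between the arrays of a code at 0.293 for shLUC and 0.378 for shSirt1, each shared by both codes of a hairpin, and the pairing itself rests on the titles, which leave the codes unexplained. Fits with the code as a block (2 residual degrees of freedom) are given beside results of members whose call they change, and for the lists as counts or named genes. Promoters came from RefSeq. Alternatives were the choice of probe set, a filter on dim genes, other normalization and variance models, fewer arrays, the code as a block and each array left out. Leaving out both arrays of A1 or of A5 was added after seeing the data.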

Additional observations from a re-analysis of the deposited data

Results flagged for a closer look

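Within the codes Ccl3 was lower in EPZ4777 in both shLUC codes (-1.21 and -1.25) and higher in both shSirt1 codes (0.59 and 0.059). Neither arm passed by itself. The shSirt1 difference of 0.33 ± 0.33 came from overlapping groups. It ran from -0.20 to 0.85 with single arrays left out, so a rise in that arm was not shown. The difference of the effects, shSirt1 minus shLUC, was 1.56 ± 0.46 log2 (SE), and its own test did not pass (limma adjusted p = 0.627). It ranged from 1.03 to 2.08 with single arrays left out.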

How the results depend on the processing

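No member that passed changed sign under any of the 19 alternative settings, and 31 of 1088 recomputed values did, all of them values that had not passed. In shLUC cells, 1 member passed in the reported fit, 2 with every probe set, with centred arrays or with a trended and robust variance, and 3 among genes above the median level and in a fit of the 4 arrays alone, which is repeated by leaving out both A1 or both A5 arrays. With single arrays left out it was 0 to 4. In cells labelled shSirt1, 2 passed in the reported fit, 1 with the mean of probe sets, every probe set, quantile normalization or without both A1 arrays, 0 with the 4 arrays alone, and 0 to 2 with single arrays left out. Over both arms the 5 became 2 without both A5 arrays and 0 to 6 with single arrays left out. For the difference of effects, 0 became 1 without both A5 arrays. Leaving out both arrays of a code leaves 1 array in each shSirt1 group, with the spread taken from the shLUC arrays alone, so passes there do not bear on the stability of a shSirt1 result. Between hairpins in DMSO, 0 became 1 without both A5 arrays and 0 to 1 with single arrays left out. In EPZ4777, 2 became 1 with the mean of probe sets, genes above the median or a trended and robust variance, 0 with the 4 arrays alone, and 0 to 2 with single arrays left out. Without either shLUC DMSO array no member passed within an arm or over both arms, and over both arms 6 and 2 genes passed in all, against 1979. Over all genes, shLUC calls were 724, with 1424 among genes above the median, 402 with the 4 arrays alone and 0 to 1031 with single arrays left out. In cells labelled shSirt1 they were 72, with 0 in the 4 arrays alone and 0 to 205 with single arrays left out. Over both arms they ran from 2 to 2588, for the difference of effects from 0 to 89, and between hairpins from 0 to 155 in DMSO and 0 to 73 in EPZ4777 (56 in the reported fit, 14 in the 4 arrays alone, 120 of 45037 probe sets). Every probe set tested gave 1470 calls with shLUC and 3279 over both arms. Without both A1 arrays the counts were 402 with shLUC, 14 with shSirt1, 973 over both arms and 129 between hairpins in EPZ4777, and without both A5 arrays 402, 145, 407 and 78, with 69 for the difference of effects and 203 in DMSO.

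With the code as a fixed replicate block 5 members passed in shLUC cells (Ccr1, Ccl2, Ccl3, Ccl6 and Ccl7), 3 in cells labelled shSirt1 (Ccr1, Ccr2 and Ccl9) and 8 over both arms, beside 7.23%, 2.22% and 16.1% of all genes. Those shares are 1316, 404 and 2925 genes, and with a random block 2379, 504 and 3718 genes passed. With a random block 7 members passed in shLUC cells and 8 over both arms.

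Sign changes away from single arrays concerned Cx3cr1 with the mean of probe sets (0.096 in shLUC cells, -0.026 for the difference of effects, 0.018 and -0.0074 between hairpins in DMSO and EPZ4777), with quantile normalization (-0.019) and with centring (-0.013) over both arms, and Cxcr4 with quantile normalization (-0.016 for the difference of effects). Without both A1 arrays Ccl2 was -0.42 and Ccl7 -0.015 in cells labelled shSirt1, and Cxcr2 was 0.041 between hairpins in EPZ4777. Without both A5 arrays the difference of effects was -0.60 for Cxcr2 and -0.21 for Cxcr4. With single arrays left out, values crossed 0 in shLUC cells for Cx3cr1 (-0.19 to 0.11), in cells labelled shSirt1 for Ccl2 (-0.47 to 0.73), Ccl3 (-0.20 to 0.85) and Ccl7 (-0.028 to 0.32), and over both arms for Cx3cr1 (-0.055 to 0.096). They also crossed 0 in the difference of effects for Ccr1 (-0.20 to 0.93), Cxcr2 (-0.42 to 0.70), Cxcr4 (-0.48 to 0.55) and Cx3cr1 (-0.034 to 0.27), and between hairpins for Cx3cr1 in DMSO (-0.22 to 0.080) and for Cxcr2 (-0.94 to 0.18) and Cxcr4 (-0.69 to 0.34) in EPZ4777. The cause was not tested. Signal close to background limits Cx3cr1 on all arrays and Ccl7 outside shLUC cells in EPZ4777.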
